A study of Homo sapiens with 6 samples.

Results

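The genes described here are 10 nuclear genes whose protein products transcribe, copy or stabilize the mitochondrial genome, or set how much of that machinery a cell makes. They were chosen by name, from what their products are known to do. No measured value enters that rule, but it was written with earlier results of these data known. All 10 were found in the deposited table of 35554 genes, and all 10 passed the filter on low counts, which left 19711 genes for testing. RNA sequencing compared parental LNCaP cells (n = 3 libraries) with their enzalutamide-resistant derivative LNCaP-enzaR (n = 3). LNCaP is an established line from a metastatic human prostate cancer, and enzalutamide is a drug against androgen signalling. Parental cells had no selection. LNCaP-enzaR cells are a single resistant line, obtained by keeping LNCaP under continuous drug exposure and then maintained on a lower dose, and whether enzalutamide was in the medium at harvest is not stated. The 3 libraries of each line came from separate flasks, and no source says that they were selected independently, so p-values measure only the spread between these flasks.

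Mitochondrial DNA is a small circular genome, present in many copies per cell, that encodes core subunits of the respiratory chain together with the ribosomal and transfer RNAs needed to translate them. Every protein that transcribes or replicates it is encoded in the nucleus and imported. TFAM packages the DNA into nucleoids and bends the promoters, TFB2M melts the promoter, and POLRMT is the RNA polymerase. LRPPRC and SLIRP form a complex that stabilizes mitochondrial mRNAs, POLG and POLG2 form the DNA polymerase, TWNK is the helicase at the replication fork, and PPARGC1A (PGC-1alpha) is a coactivator that raises expression of many of these genes.

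Nuclear genes of this pathway are known targets of the factor NRF1, and their promoters were therefore searched. RefSeq promoter windows (GRCh38.p14, 250 bases before to 50 after the gene start) were at hand for 9 of the 10 genes. The NRF1 site, written as GCGCA followed by any base and then GCGC, was searched on both strands. It was found in 4 of these 9 promoters and in 5.78% of all 35116 promoters in the table, which were not limited to tested genes. Among the 12240 tested genes with a promoter in the table, 1510 held it. The following 30-base stretches, read 5′ to 3′ on the strand of the gene, are shown because they carry those matches in members of different roles, with the matching letters in capitals.
TFAM, chr10:58385337-58385366, plus strand: acgctctcccGCGCCTGCGCcaattccgcc
POLRMT, chr19:633542-633571, minus strand: ggcggcgcggGCGCATGCGCAGGCGCgggc
TFB1M, chr6:155314597-155314626, minus strand: gcaggacttaGCGCATGCGCtctcagcacg
POLG2, chr17:64497055-64497084, minus strand: cacgctcacctccgttGCGCCTGCGCcgtg
Counted from the RefSeq start, the match began 63 bases before it in TFAM, 132 in TFB1M and 14 in POLG2. The POLRMT promoter held 2 overlapping matches, which began 24 and 18 bases before the start. The RefSeq start is the gene boundary of the deposited table for POLRMT and POLG2 and lies inside that boundary for TFAM and TFB1M, so the TFAM match falls within the gene as the table bounds it. The letters CCGGAAG, read by ETS factors such as GABPA, were found in 4 of the members (POLRMT, TFB1M, SLIRP and POLG2). They were found in 10.3% of all promoters and in 2506 of the 12240 tested genes. The letters AAGATGGCG, read by YY1, were found in SLIRP, in 1.75% of all promoters and in 506 of the 12240 tested genes. No member promoter held AAGGTCA (an ERR site, 3.92% of all promoters) or TGACGTCA (a cAMP response element, 1.85%). Among the 12240 tested genes, 460 and 439 held these letters. A match describes the letters in these windows and not binding.

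Libraries held 77759122 to 98616465 counts. Within each line the Pearson correlation of log2 CPM (counts scaled to 1000000 per TMM-scaled library) was 0.99 to 0.992 across genes, which are not independent replicates. LNCaP-enzaR replicate 1 stood apart from its group. Its chi-square per degree of freedom against the other two libraries of the line was 40.8 and 32.4, against 7.5 between those, and 5.9 to 9.92 between parental libraries. The deviation followed GC content: its median was −0.13 on the log2 scale in the lowest of 4 equal groups of genes by GC content of the canonical transcript (23.1% to 41.7%) and 0.14 in the highest group (56.6% to 76%). The fitted changes between the lines also ran with GC content, with a median log2 fold change of −0.23 in the lowest group and 0.19 in the highest, and −0.17 and 0.11 without that library. The 10 genes were therefore also fitted without it and with a correction for GC content, which was added after the data were seen. Changes of further pathway genes, described below, are given only from the uncorrected fit of all libraries. For those genes, only some counts past the threshold are given in the other 2 settings. All 7 LNCaP markers summed here were present, at 4467 to 4591 CPM of the library totals in parental and 2316 to 2586 CPM in LNCaP-enzaR libraries, and KLK3, which encodes prostate-specific antigen, had a log2 fold change of −3.08. On the same scale, summed fibroblast markers stood at 14.8 to 18.1 CPM against 8.26 to 8.65 CPM, a sum carried by COL1A1 (TMM-scaled means of 13.4 and 4.29 CPM), while PDGFRB (log2 fold change 1.43) and LUM (1.78) were higher. Summed endothelial markers stood at 5.66 to 6.16 against 3.90 to 4.38 CPM, a sum carried by VWF (TMM-scaled means of 5.74 and 4.15 CPM). Immune markers stood at 0.155 to 0.220 against 0.0673 to 0.202 CPM.

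**Figure D1:**
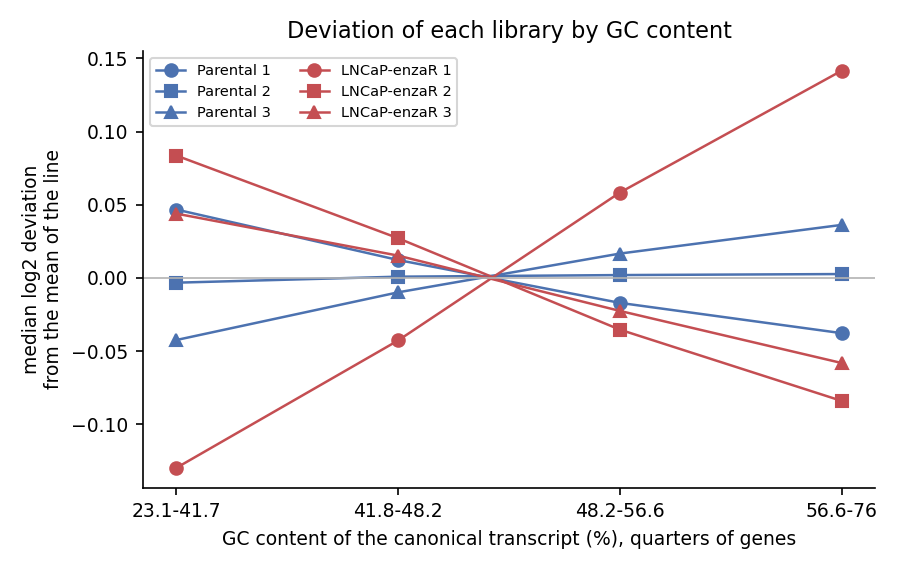
Median log2 deviation of each library from the mean of its line (y) in 4 equal groups of genes by GC content of the canonical transcript in percent (x), with parental libraries in blue and LNCaP-enzaR libraries in red. LNCaP-enzaR replicate 1 runs from −0.13 to 0.14, while the parental libraries stay between −0.042 and 0.047.

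Across all 19711 tested genes, 42.7% passed the threshold, which required an adjusted p not above 0.05 and a difference of 1.5-fold or more (edgeR quasi-likelihood test, Benjamini-Hochberg), 23.3% higher and 19.5% lower in LNCaP-enzaR. Of the 10 genes, 2 passed and both were lower: TFAM and PPARGC1A. A further 5 (POLRMT, TFB2M, LRPPRC, SLIRP and POLG2) had an adjusted p of at most 0.05 with a fold change under 1.5, and TFB1M, POLG and TWNK had an adjusted p above 0.05. With no minimum fold, 7 of the 10 passed, against 66.3% of all genes. Levels of the lines did not overlap in 7 of the 10, against 70.6% of all genes. The median log2 fold change of the 10 was −0.01, beside 0.01 over all tested genes. In bulk RNA, a lower share of expressing cells and less RNA per cell cannot be told apart.

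**Figure D2:**
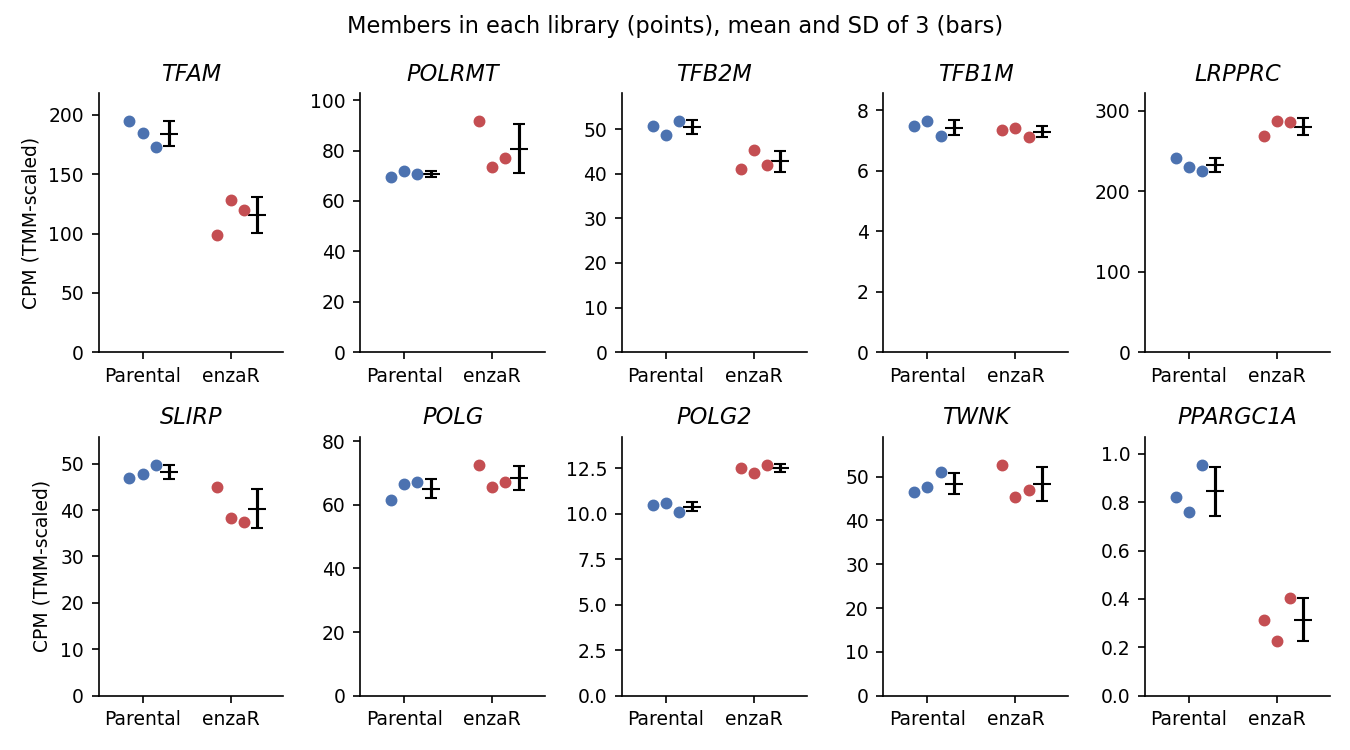
Level of each of the 10 genes in CPM (y, linear, from 0) in the 3 parental (blue) and 3 LNCaP-enzaR (red, enzaR) libraries, with the mean and SD of each line as bars. TFAM and PPARGC1A are lower in all 3 LNCaP-enzaR libraries than in any parental one, and TFB1M, POLG and TWNK overlap between the lines.

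Among the transcription factors of the mitochondrial promoters, TFAM was lower in the resistant line. TFAM (ENSG00000108064.11, GRCh38 chr10:58385345-58399220, plus strand) stood at 195, 184 and 173 CPM in parental replicates 1 to 3 and at 98.4, 128 and 120 CPM in LNCaP-enzaR replicates 1 to 3. Every resistant library lay below every parental one, and the lowest was LNCaP-enzaR replicate 1. Its mean level went from 184 ± 10.7 to 116 ± 15.5 CPM (SD, n = 3 each). Its log2 fold change was −0.67 with a standard error (SE) of 0.084 and a 95% interval of −0.85 to −0.49 (edgeR quasi-likelihood test, adjusted p = 6.1e-06). The change lay close to the 1.5-fold limit and crossed it in 3 of 15 alternatives: it was −0.56 without LNCaP-enzaR replicate 1, −0.57 with upper-quartile scaling and −0.39 with the GC correction, with an adjusted p of at most 8.0e-05 in all 15. The canonical TFAM transcript has a GC content of 36.0%, within the lowest GC group.

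POLRMT, the polymerase itself, moved little, and its direction depended on the processing. POLRMT (ENSG00000099821.14, chr19:617221-633537, minus strand) stood at 69.3, 71.8 and 70.8 CPM in parental and at 91.7, 73.4 and 77.0 CPM in LNCaP-enzaR libraries. The lines did not overlap, but LNCaP-enzaR replicates 2 and 3 were close to the parental range and replicate 1 was well above it. The log2 fold change was 0.19 ± 0.076 (SE; 95% interval 0.029 to 0.35, edgeR adjusted p = 0.038), under the 1.5-fold limit. It was 0.10 without LNCaP-enzaR replicate 1 (edgeR adjusted p = 0.057) and turned to −0.21 with the GC correction (edgeR adjusted p = 3.3e-05). The edgeR adjusted p was also above 0.05 with library totals (0.065), with the replicate block (0.068) and without parental replicate 1 (0.12), 2 (0.081) or 3 (0.091). Its canonical transcript has a GC content of 66.1%.

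TFB2M, the factor that opens the promoter together with POLRMT, was slightly lower. TFB2M (ENSG00000162851.8, chr1:246540561-246566261, minus strand) stood at 50.8, 48.8 and 51.8 CPM in parental and at 41.1, 45.4 and 41.9 CPM in LNCaP-enzaR libraries, with no overlap. The log2 fold change was −0.24 ± 0.063 (SE; 95% interval −0.37 to −0.10, edgeR adjusted p = 0.0041). Leaving out LNCaP-enzaR replicate 1 gave −0.20. It did not pass the test with upper-quartile scaling (−0.14, edgeR adjusted p = 0.071) or with the GC correction (−0.07, edgeR adjusted p = 0.17).

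TFB1M, a paralogue of TFB2M that methylates the small mitochondrial ribosomal RNA, showed no detectable difference. TFB1M (ENSG00000029639.11, chr6:155256134-155314493, minus strand) stood at 7.47, 7.64 and 7.15 CPM in parental and at 7.36, 7.43 and 7.10 CPM in LNCaP-enzaR libraries, and the lines overlapped. The log2 fold change was −0.02 ± 0.089 (SE; edgeR adjusted p = 0.82), and its 95% interval of −0.22 to 0.17 bounds a difference in either direction. Of its exonic bases, 38.7% lie in exons of other genes, chiefly TIAM2 on the opposite strand, which held 63 to 187 counts beside 562 to 705 for TFB1M. The strand setting of the counting is not stated, so reads in the overlap cannot be assigned to either gene.

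The 2 partners of the mRNA-stabilizing complex moved in opposite directions, each by less than 1.5-fold. LRPPRC (ENSG00000138095.20, chr2:43886224-43996226, minus strand), the large pentatricopeptide-repeat subunit, stood at 242, 231 and 226 CPM in parental and at 269, 287 and 286 CPM in LNCaP-enzaR libraries. All 3 resistant libraries were above all parental ones, with a log2 fold change of 0.27 ± 0.053 (SE; 95% interval 0.15 to 0.38, edgeR adjusted p = 4.6e-04) and a range of 0.24 to 0.43 over 15 alternatives. SLIRP (ENSG00000119705.10, chr14:77708071-77761104, plus strand), its small RNA-binding partner, stood at 46.9, 47.9 and 49.8 CPM in parental and at 45.1, 38.4 and 37.5 CPM in LNCaP-enzaR libraries. LNCaP-enzaR replicate 1 was nearest the parental range, and no library crossed between the lines. The log2 fold change of SLIRP was −0.26 ± 0.074 (SE; 95% interval −0.42 to −0.098, edgeR adjusted p = 0.0071). Leaving out LNCaP-enzaR replicate 1 gave −0.34. It did not pass the test with upper-quartile scaling (−0.16, edgeR adjusted p = 0.082) or with the GC correction (−0.18, edgeR adjusted p = 0.064). Of the SLIRP exonic bases, 14.8% lie in exons of other genes, among them SNW1 on the opposite strand, which held 6758 to 8232 counts in parental and 4841 to 5911 counts in LNCaP-enzaR libraries.

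Of the replication proteins, the accessory subunit of the DNA polymerase was slightly higher and the catalytic subunit and the helicase were not distinguishable between the lines. POLG (ENSG00000140521.17, chr15:89305198-89334861, minus strand), the catalytic subunit, stood at 61.6, 66.5 and 67.1 CPM in parental and at 72.6, 65.5 and 67.1 CPM in LNCaP-enzaR libraries. The lines overlapped, and the highest library was LNCaP-enzaR replicate 1. The log2 fold change of POLG was 0.07 ± 0.063 (SE; 95% interval −0.063 to 0.21, edgeR adjusted p = 0.33). It was 0.17 with upper-quartile scaling (edgeR adjusted p = 0.028) and turned to −0.14 with the GC correction (edgeR adjusted p = 0.0026). POLG shares 14.99% of its exonic bases with other genes, among them FANCI on the opposite strand, a DNA-repair gene with 12021 to 14070 counts in parental and 4422 to 5491 counts in LNCaP-enzaR libraries. What share of the reads in that overlap came from FANCI was not tested.

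POLG2 (ENSG00000256525.8, chr17:64477785-64497054, minus strand), the accessory subunit that keeps the polymerase on its template, stood at 10.5, 10.6 and 10.1 CPM in parental and at 12.5, 12.3 and 12.7 CPM in LNCaP-enzaR libraries. Both lines were tight and did not overlap. The log2 fold change of POLG2 was 0.26 ± 0.077 (SE; 95% interval 0.10 to 0.43, edgeR adjusted p = 0.0074), with a range of 0.23 to 0.37 over 15 alternatives. TWNK (ENSG00000107815.10, chr10:100987367-100994403, plus strand), the helicase, stood at 46.5, 47.5 and 51.0 CPM in parental and at 52.7, 45.4 and 46.9 CPM in LNCaP-enzaR libraries. The TWNK means were equal to 3 digits, with overlapping lines and a 95% interval of −0.15 to 0.15 on the log2 scale (edgeR adjusted p = 0.996).

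PPARGC1A showed the greatest change of the 10 genes, at a very low level. PPARGC1A (ENSG00000109819.9, chr4:23755041-23904089, minus strand) held 76, 69 and 75 counts in parental and 27, 20 and 40 counts in LNCaP-enzaR libraries. These are 0.821, 0.759 and 0.955 CPM against 0.313, 0.226 and 0.403 CPM, so every resistant library was below every parental one and all were above the 0.0302 to 0.0382 CPM that 3 counts represent. Its log2 fold change was −1.42 ± 0.30 (SE; 95% interval −2.06 to −0.77, edgeR adjusted p = 8.4e-04). It passed the threshold in all 15 alternatives, with values from −1.64 to −1.23.

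**Figure D3:**
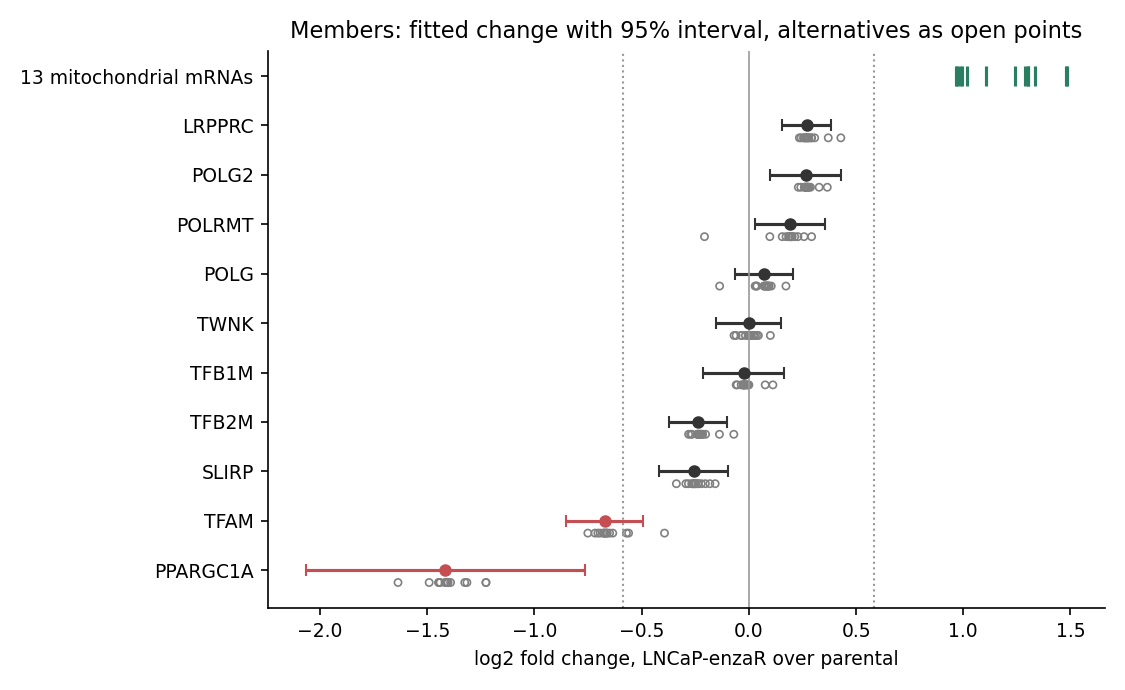
Log2 fold change of LNCaP-enzaR over parental cells (x) for each of the 10 genes, as filled points with 95% intervals (red where the gene passed the threshold), with the 15 alternatives as open points, the 1.5-fold limits as dotted lines, and the 13 mitochondrial mRNAs as green ticks. TFAM (−0.67) lies next to the limit and PPARGC1A (−1.42) beyond it, while all 13 mitochondrial mRNAs lie between 0.97 and 1.48.

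Per kilobase of canonical transcript, the 10 genes spanned a wide range of levels. In parental cells SLIRP was the most abundant (128 ± 3.89 CPM per kb, SD, n = 3), and its short transcript of 376 bases makes this value depend on the length used. TFAM (36.6 ± 2.13 CPM per kb) and LRPPRC (35.2 ± 1.24 CPM per kb) came next, with overlapping libraries. LRPPRC has 34689 exonic bases against 6603 in its canonical transcript, and TFAM 5282 against 5025. The order of TFAM and LRPPRC in either line therefore also depends on the length used. TFB2M (28.3 CPM per kb), POLRMT (18.7), POLG (14.6) and TWNK (13.4) followed, and the libraries of POLG and TWNK overlapped. POLG2 (6.58 CPM per kb), TFB1M (2.65) and PPARGC1A (0.134) were the lowest. By canonical length, LRPPRC in LNCaP-enzaR cells (42.5 ± 1.56 CPM per kb) stood above TFAM (23.0 ± 3.08), with no overlap of their libraries. TFAM there overlapped TFB2M (24.0 ± 1.31) and POLRMT (21.4 ± 2.57 CPM per kb).

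Ratios of partners within a library do not depend on the scaling between libraries, and 6 pairs were compared. For 3 libraries against 3 a two-sided exact permutation test cannot give a p under 0.1. The TFAM to POLRMT count ratio was 2.81, 2.57 and 2.45 in parental and 1.07, 1.75 and 1.56 in LNCaP-enzaR libraries, a difference in mean log2 ratio of −0.86 (exact p = 0.1, 0.12 adjusted over 6 pairs) and −0.66 without LNCaP-enzaR replicate 1. The TFB2M to POLRMT ratio went from 0.715 ± 0.030 to 0.537 ± 0.086 (log2 difference −0.42), and the SLIRP to LRPPRC ratio from 0.207 ± 0.013 to 0.144 ± 0.020 (−0.53). Both ratios were lower in all 3 resistant libraries than in any parental one. The POLG2 to POLG ratio was higher (0.160 ± 0.0096 to 0.183 ± 0.0092, log2 difference 0.19), as was TFB1M to TFB2M (0.147 ± 0.0092 to 0.171 ± 0.0079, 0.22). For TWNK to POLG the lines overlapped (log2 difference −0.07, exact p = 0.2). The other 5 pairs each had the smallest p the design allows. Ratios between transcripts of unlike GC content still move with the GC trend: with the GC correction TFAM (−0.39) and POLRMT (−0.21) were closer, and TFB2M (−0.07) stood above POLRMT, the opposite order to the uncorrected ratio. TWNK (−0.07) then stood above POLG (−0.14), also opposite to the uncorrected ratio, for which the lines overlapped. For SLIRP (−0.18) and LRPPRC (0.43), as for POLG2 (0.33) and POLG (−0.14), the order was kept. It was also kept for TFB1M (0.11) and TFB2M (−0.07).

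The mitochondrial transcripts on which these proteins act were higher in the resistant line. The 13 mRNAs of the mitochondrial genome took 4.49%, 4.71% and 4.54% of counts in parental and 9.996%, 10.6% and 9.91% in LNCaP-enzaR libraries, a ratio of means of 2.22 with no overlap (exact permutation p = 0.1, the smallest possible). All 13 passed the edgeR threshold, with log2 fold changes from 0.97 to 1.48 and a median of 1.24. The lowest was MT-ND1 and the highest MT-ND6, the only mRNA encoded on the light strand, with MT-ND5 next at 1.48. These were named after their values were seen. As the strand setting of the counting is not stated, reads from the opposite strand cannot be told apart in the MT-ND6 counts. Of the 22 mitochondrial tRNAs, 17 passed (77.3%, against 42.7% of all genes) and all 17 were higher, and both rRNAs were higher (0.64 and 1.18). Some of these 17 tRNAs had few counts, with parental means as low as 0.11 and 0.12 CPM. Libraries were made from polyadenylated RNA, so the ribosomal and transfer RNAs are not fully captured by that selection. RNA was measured and not DNA, so the number of mitochondrial genomes per cell is not known from these data.

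**Figure D4:**
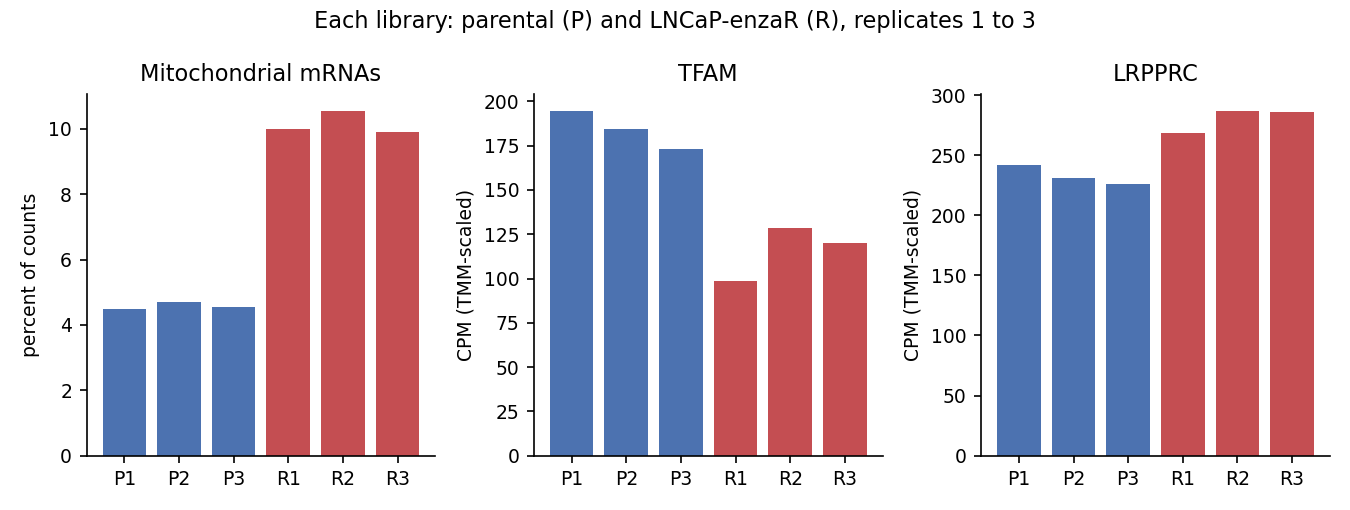
Share of counts on the 13 mitochondrial mRNAs (percent), TFAM level and LRPPRC level (CPM) in each parental (P1 to P3, blue) and LNCaP-enzaR (R1 to R3, red) library, as bars from 0. The mitochondrial share is 4.49% to 4.71% in parental and 9.91% to 10.6% in LNCaP-enzaR libraries, while TFAM is lower and LRPPRC higher in all 3 resistant libraries.

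Set against the count of each nuclear gene, mitochondrial mRNA differed most between the lines for PPARGC1A and TFAM. Per TFAM count, parental libraries held 227, 253 and 259 mitochondrial mRNA counts and LNCaP-enzaR libraries 1052, 830 and 821, a 3.66-fold higher mean. Per POLRMT count the means were 640 ± 8.33 and 1286 ± 162 (2.01-fold), and per LRPPRC count 195 ± 10.4 and 367 ± 20.4 (1.89-fold). For the other members the ratio of means ran from 1.89 for POLG2 to 2.73 for SLIRP, apart from PPARGC1A at 6.44. The summed share itself was 2.22-fold higher, and the remainder of each ratio is the change of the nuclear gene.

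Further genes of the pathway, 70 in all in 6 lists, were examined beside the 10. All 70 were tested, and 24 passed the threshold (34.3%, against 42.7% of all genes), 5 higher and 19 lower, with a median log2 fold change of −0.29. Upstream regulators of the nuclear genes had 7 of 10 past the threshold (70%, against 42.7% of all genes), 1 higher and 6 lower, and a median of −0.67. PPARGC1B, a coactivator related to PPARGC1A, fell by 1.43 ± 0.080 on the log2 scale (20.3 ± 1.10 to 7.53 ± 0.31 CPM, edgeR adjusted p = 1.1e-09). CREB1, a cAMP-responsive factor, fell by 1.29 ± 0.075 (83.3 ± 2.33 to 34.1 ± 3.54 CPM), and PPRC1, the third PGC-1 family member, fell by 0.84 ± 0.073 (87.4 ± 1.26 to 49.0 ± 5.29 CPM). Among genes named after their values were seen, NRF1 itself (−0.78), GABPA (−0.71) and GABPB1 (−0.62) were also lower and the nuclear receptor ESRRG was higher (1.87 ± 0.45). YY1 (−0.34), GABPB2 (−0.31) and ESRRA (0.02) did not pass. With the GC correction 5 of the 10 regulators passed.

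Replication and repair factors had 6 of 12 past the threshold (50%, against 42.7% of all genes), all lower, with a median of −0.61. FEN1, the flap endonuclease, fell by 2.12 ± 0.058 on the log2 scale (201 ± 5.55 to 46.1 ± 2.10 CPM), DNA2, a nuclease and helicase, fell by 2.31 ± 0.10 (32.4 ± 1.41 to 6.50 ± 0.998 CPM), and MGME1, the mitochondrial exonuclease, fell by 1.32 ± 0.073 (70.6 ± 2.59 to 28.3 ± 2.59 CPM). FEN1 and DNA2 also serve replication of nuclear DNA. POLG, POLG2 and TWNK, described above, did not pass.

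Genes of nucleotide supply had 7 of 10 past the threshold (70%, against 42.7% of all genes), 4 higher and 3 lower, with a median of 0.23. RRM1 encodes a subunit of ribonucleotide reductase, and RRM2 encodes the reductase subunit used in dividing cells. RRM2 fell by 1.83 ± 0.054 on the log2 scale (312 ± 9.84 to 87.5 ± 2.41 CPM), and RRM1 had a log2 fold change of −1.498 ± 0.056 (285 ± 3.75 to 101 ± 5.20 CPM). TK2, the mitochondrial thymidine kinase, rose by 1.29 ± 0.059 (31.9 ± 1.15 to 77.96 ± 1.74 CPM), and 20.1% of its exonic bases lie in exons of other genes. RRM2B, the reductase subunit used outside S phase, was also higher (0.89), as were MPV17 (0.91) and TYMP (0.90), while SLC25A33 was lower (−0.70). These 4 were named after their values were seen.

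Factors that process, modify, bind or degrade mitochondrial RNA had 1 of 24 past the threshold (4.17%, against 42.7% of all genes). Their median was −0.04 over 10 positive and 14 negative values. A further 16 had an adjusted p of at most 0.05 with a fold change under 1.5, as did 4649 of all 19711 tested genes. FASTKD1, an RNA-binding protein of mitochondria, fell by 1.16 ± 0.078 on the log2 scale (33.1 ± 1.604 to 14.8 ± 1.26 CPM). FASTKD2, of the same family, had −0.56 ± 0.063 and the exonuclease REXO2 0.56 ± 0.066, both with small adjusted p-values (edgeR, 1.9e-06 and 3.3e-06) but a fold change under 1.5. The list had 2 genes past the threshold without LNCaP-enzaR replicate 1 and 3 with the GC correction.

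Of the elongation and termination factors, 1 of 7 passed (14.3%, against 42.7% of all genes), with a median of −0.19. MTERF4, which acts in mitochondrial ribosome assembly, fell by 1.57 ± 0.054 on the log2 scale (132 ± 1.94 to 44.6 ± 0.48 CPM), but 51.0% of its exonic bases lie in exons of other genes. MTERF3 (−0.37 ± 0.073) and the elongation factor TEFM (−0.33 ± 0.086) did not reach 1.5-fold. Nucleoid proteins and proteases had 2 of 7 past the threshold (28.6%, against 42.7% of all genes), both lower, with a median of −0.27. ATAD3B fell by 1.45 ± 0.080 (44.6 ± 4.01 to 16.3 ± 1.05 CPM) and the prohibitin PHB2 by 0.63 ± 0.059 (303 ± 10.1 to 196 ± 13.5 CPM), while ATAD3A had −0.27 ± 0.064. LONP1, the protease that degrades TFAM, had a log2 fold change of −0.05 (edgeR adjusted p = 0.58) and was named after its values were seen.

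**Figure D5:**
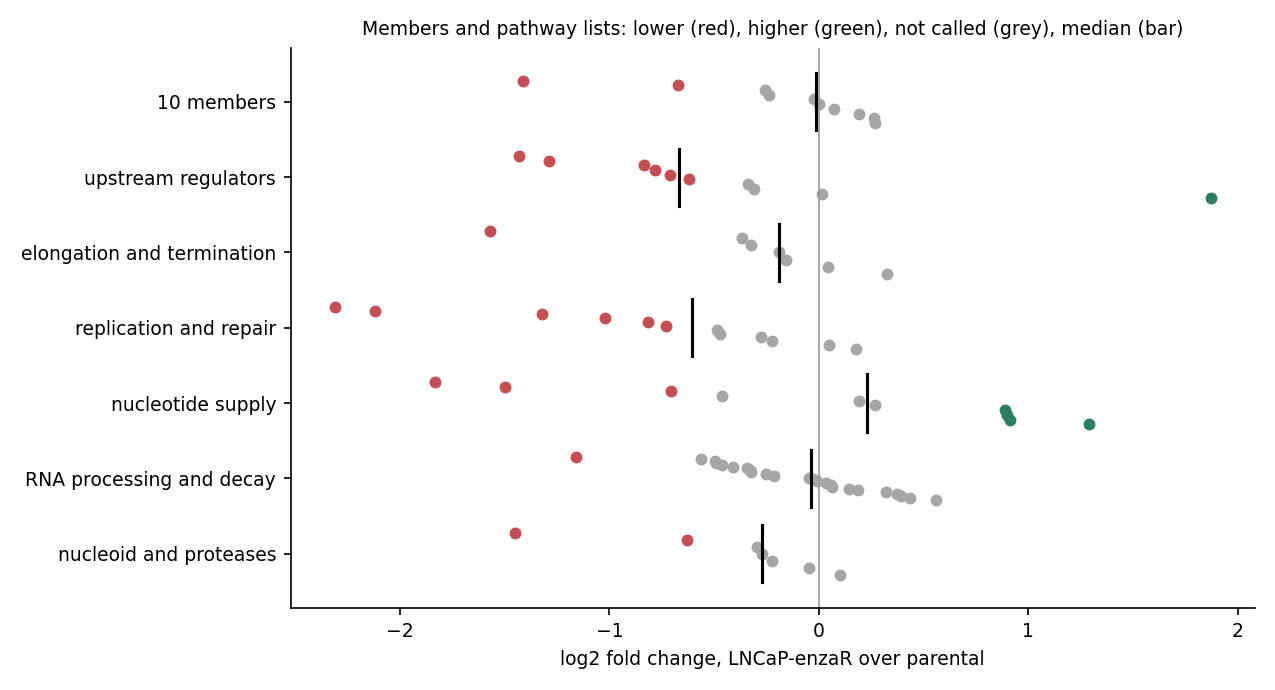
Log2 fold change of LNCaP-enzaR over parental cells (x) for the 10 genes and for each gene of 6 pathway lists (rows), lower in red, higher in green and not past the threshold in grey, with the median of each row as a bar. The median is −0.67 for upstream regulators, −0.61 for replication and repair, and −0.01 for the 10 genes.

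Promoter letters were set beside expression over all genes with a promoter in the table. Of 12240 such tested genes, 43.6% passed the threshold and the median log2 fold change was −0.02. Of the 1510 with the NRF1 letters, 35.1% passed, 247 higher and 283 lower, with a median of −0.06. Of the 2506 with the ETS letters, 32.8% passed, with a median of −0.08. Of the 506 with the YY1 letters, 27.3% passed, 44 higher and 94 lower, with a median of −0.17. Of the 460 with the ERR letters 45.9% passed (median 0.04), and of the 439 with the cAMP response element 39.4% (median −0.02). The 4 members with NRF1 letters had log2 fold changes of −0.67 (TFAM), 0.19 (POLRMT), −0.02 (TFB1M) and 0.26 (POLG2), and so did not share a direction.

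The tested genes around each member were compared with it. Within 2 Mb of TFAM, 9 other genes were tested, with a median log2 fold change of 0.10, 3 of them higher and 1 lower. Around PPARGC1A 15 genes had a median of −0.48, 3 higher and 6 lower. The neighbours of LRPPRC (19 genes, median 0.35, 6 higher and 1 lower) had a median on the same side of 0 as that gene, as did those of TFB2M (24 genes, median −0.37, 3 higher and 9 lower). For SLIRP the 27 neighbours had a median of 0.22, opposite to the gene. Medians were 0.29 around POLRMT (100 genes), 0.40 around POLG (52), −0.05 around POLG2 (40), opposite to that gene, −0.05 around TFB1M (9) and −0.02 around TWNK (62). DNA copy number was not measured here.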

How the data were processed

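The study sequenced polyadenylated RNA of 3 parental and 3 LNCaP-enzaR flasks as paired-end reads. The authors trimmed, aligned (STAR, GRCh38.p13, GENCODE) and counted reads per gene (featureCounts), and deposited raw counts that were not normalized. Strand setting and the treatment of reads mapping to several places are not given in the sources used here.

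Groups and replicate numbers came from sample titles. The test was that of edgeR 4.0.16, run in R 4.3.3 (filterByExpr, TMM, robust quasi-likelihood F-test without covariates, Benjamini-Hochberg over 19711 genes, which held 99.96% of counts). The threshold (adjusted p not above 0.05 with a difference of 1.5-fold or more) is that of the study's methods, which name DESeq2. DESeq2 1.42.0 was run as an alternative, as were RLE factors, library totals, upper-quartile scaling, other filters, no mitochondrial genes, a replicate block, each library left out and other fold limits. A loess GC correction (span 0.3) was added after the data were seen. Ratios were compared by two-sided exact permutation tests. Exon overlap, canonical transcript length and GC content came from GENCODE v44, which held 99.8% of the table's genes by identifier, and GC content was available for 99.8% of tested genes.

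The 10 genes and the pathway lists were chosen with earlier results of these data known. Named genes are the 10, the 3 of each list with the smallest p-value and the summed mitochondrial transcripts, and others are said to be named after their values were seen. COL1A2 and MS4A1 of the marker lists were not matched and are not analysed here. A further LNCaP marker is not reported here. The TWNK promoter and protein sequences were not used here.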

Additional observations from a re-analysis of the deposited data

How the results depend on the processing

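The count of genes past the threshold was 8425 and stayed within 1.5 times that under every alternative except other fold limits (13074 with no minimum fold, 5561 at 2-fold). Of the 10 genes, 2 passed, and 1 passed with upper-quartile scaling, with the GC correction and at 2-fold, 7 with no minimum fold, and 1 to 2 with single libraries left out, the 1 being without LNCaP-enzaR replicate 1. Where 1 passed, the gene lost was TFAM. Same-numbered libraries did not deviate together (correlations −0.0652, −0.00041 and −0.0507). Such correlations cannot tell whether these libraries were handled together. The replicate block left 2 of the 10 and 8212 genes past the threshold, 8174 of them shared. RNA processing genes past the threshold were 2 with library totals or upper-quartile scaling, 3 with the GC correction and 1 to 2 with single libraries left out (2 without LNCaP-enzaR replicates 1 or 2 or parental replicate 2), against 1. Nucleoid genes were 1 with upper-quartile scaling, against 2. Upper-quartile scaling moved the median log2 fold change of all genes by 0.10 and the share of calls that were higher from 54.5% to 60.9%.

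Direction turned for 4 of the 10 genes. TWNK lay at −0.00 and was 0.0086 with DESeq2, 0.009 with RLE factors, 0.10 with upper-quartile scaling, 0.0218 with at least 10 counts in every library, 0.0034 without mitochondrial genes and −0.0596 to 0.0443 with single libraries left out. TFB1M was 0.0761 with upper-quartile scaling, 0.11 with the GC correction and −0.0544 to 0 with single libraries left out. With the GC correction POLG was −0.14, and POLRMT went from 0.19 to −0.21, with an interval that leaves out 0 before the correction and an edgeR adjusted p of 3.3e-05 after it. The GC correction removes any trend with GC content, also one that differs between the lines, and which part of that trend was technical was not tested. Counts of PPARGC1A, 20 to 76 per library, limit its precision.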
